A study of Mus musculus with 4 samples.

Results

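The genes described here encode the nuclear subunits of oxidative phosphorylation, the pathway that turns the energy of NADH and succinate into ATP at the inner mitochondrial membrane. They were chosen by name. A probe set was a member if the platform annotation gave it exactly 1 gene symbol and that symbol began with Nduf and a subunit letter and digit, with Cox4 to Cox8, with Atp5 or with Uqcr, or was Sdha, Sdhb, Sdhc or Sdhd. This gave 164 probe sets for 81 genes, of 34945 probe sets for 18193 genes in all, and the rule uses no measured value, though it was set with earlier results of these data known. Complex I had 35 genes, complex II 4, complex III 8, complex IV 17 and complex V 17.

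Complexes I to IV form the respiratory chain. Complex I (NADH dehydrogenase) and complex II (succinate dehydrogenase) feed electrons to ubiquinone, complex III passes them to cytochrome c, and complex IV (cytochrome c oxidase) hands them to oxygen. Complexes I, III and IV pump protons while doing so, and complex V (ATP synthase) uses the returning protons to make ATP. Some subunits of every complex except complex II are encoded by mitochondrial DNA, and none of those genes was analysed here. In bone marrow, long-term stem cells are known to lean on glycolysis and cycling progenitors to use respiration more, while mature neutrophils are known for few mitochondria and a strongly glycolytic metabolism.

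The 4 mouse bone marrow populations had 1 Affymetrix array each, of a single colour, and the series design gives a check of cell-type expression profiles as the purpose. Granulocytes had high granularity and strong Gr-1 staining, and were judged nearly pure by morphology. The hematopoietic progenitor cells (HPC), the LT-HSC (stem cells of long-term repopulation) and the ST-HSC (those of short-term repopulation) were all enriched with c-Kit beads, stained against a cocktail of lineage antigens and sorted as LKS- (HPC), CD34-LKS (LT-HSC) and CD34+LKS (ST-HSC) cells. No treatment or genetic change, and no strain or age, is given in the labels. RNA came from 50 to 200 cells of each type and was amplified linearly in 2 rounds before labelling. With 1 array per population there is no replicate, so no test is given anywhere and precision is limited by how few arrays there are. In such bulk samples, fewer cells of a type and less RNA per cell cannot be told apart.

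All values are the deposited intensities, called signals here, on a linear scale that gave a 2% trimmed mean of 500.0 on every array. Signals under 120.1, the median of all values, were set to that floor before log2. Of a gene's probe sets, that of highest mean log2 signal stands for it. A gene counts as 2-fold higher or lower only if it was so against each array it is compared with, and its fold is the smallest of those. Signals of different genes come from different probes, so only differences between arrays are compared between genes. Where several probe sets measure 1 subunit gene, the pooled SD of their log2 differences was 0.42 for granulocytes against the other 3 arrays (40 genes), 0.34 for HPC against the stem cell arrays (40 genes) and 0.38 between the LT-HSC and ST-HSC arrays (41 genes). These SDs stand in for the missing replicates as the yardstick of error, and they hold no spread between animals or amplifications.

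Markers checked the labels. The 8 granulocyte markers, among them S100a8 and Mmp8, summed to 367732 on the granulocyte array, 565.5 on the HPC array, 19415.5 on the LT-HSC array and 633.8 on the ST-HSC array. The LT-HSC array thus stood apart. Of these 8 markers, 5 were above the floor there, S100a8 at 6782.9 and Ngp at 5299, while Cxcr2, Mmp8 and Mmp9 were under it. B-lineage markers (5 genes measured) summed to 1141.6 on the granulocyte, 6599.3 on the HPC, 12973.9 on the LT-HSC and 522 on the ST-HSC array. The 10 stem and progenitor markers summed to 1572.9 on the granulocyte, 22198 on the HPC, 50415.3 on the LT-HSC and 38773.6 on the ST-HSC array. T and NK cell markers (6 genes) summed to 4473 on the granulocyte array, 3890.2 of it from Cd3d, and to at most 949.6 on the others. Mature red cell markers summed to at most 299.1 on any array, and the 9 markers of oocyte and cumulus cells, checked because cells were packed into egg coats, to between 639 (ST-HSC) and 1792.4 (granulocytes). The part of these other cells in the results below was not tested, and values without the LT-HSC array are given where they differ. The ratio of the 3′ to the 5′ Gapdh control signal lay between 12.4 and 17.8 on the 4 arrays, but that of the actin control was 5.75 on the granulocyte array, against 12.2 on the HPC, 14.6 on the LT-HSC and 16.1 on the ST-HSC array. Amplification starts from the 3′ end, and the part of this difference in the granulocyte results was not tested.

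Subunit genes were among the well measured genes of all 4 populations. Of the 81, 72 (88.9%) were above the floor on every array, against 44.4% of all genes, and 73 reached the 75th percentile of at least 1 array. The signal of Cox4i1, the ubiquitous form of a regulatory subunit of complex IV, was 15647 in granulocytes, 15968.2 in HPC, 13201.1 on the LT-HSC and 13571.6 on the ST-HSC array. Its arrays thus lay close together, and none of the differences reached 1.5-fold. Atp5g3, 1 of the 3 genes for subunit c of the proton-driven ring of complex V, had 20764.7 in granulocytes, 24216 in HPC, 18156.2 on the LT-HSC and 22902.4 on the ST-HSC array. It was as even. The heat map of all members shows the genes of each complex in order of the granulocyte difference.

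**Figure D1:**
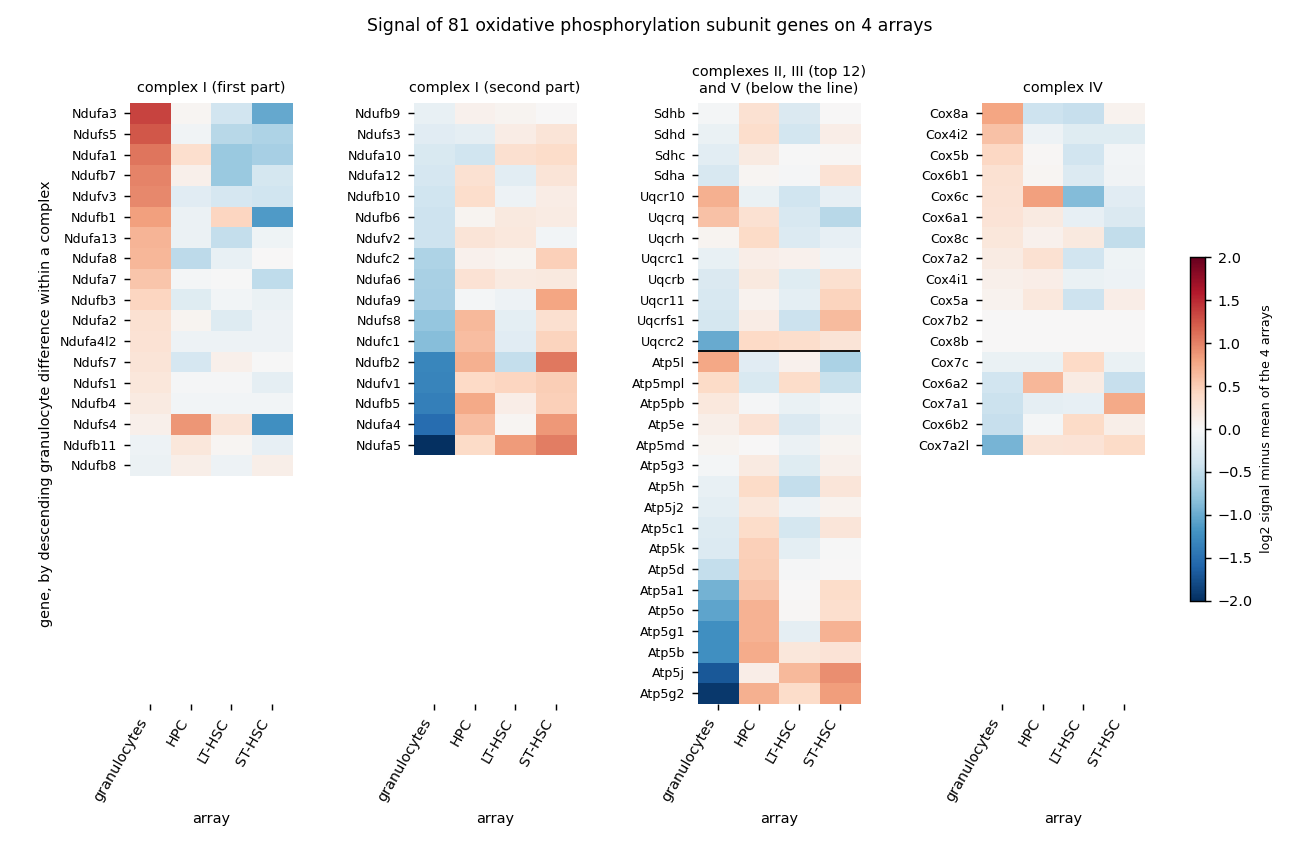
Log2 signal of each of the 81 subunit genes (rows) on the 4 arrays (columns) minus the gene's mean over the arrays, with red above and blue below that mean and colours ending at −2 and 2. The granulocyte column holds the deepest blue (Ndufa5, Atp5g2) and the deepest red (Ndufa3), and the HPC column is mostly pale red in complex V.

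Granulocytes, the differentiated population, were compared with the HPC, LT-HSC and ST-HSC arrays. Most subunit genes differed little: 3 of 81 (3.70%) were at least 2-fold higher than on each of the other arrays, all of complex I, and 11 (13.6%) at least 2-fold lower. Over all genes 8.9% were higher and 12.7% lower. Among the 8911 genes that reached the 75th percentile on an array, called brighter genes below, 14.8% were higher and 25.3% lower, while the 73 brighter subunit genes had 3 (4.11%) and 11 (15.1%). The share of lower subunit genes was thus near that of all genes, and both shares were under those of the brighter genes. Genes high on a single array also count as brighter, so that set takes in genes that differ and is not a neutral background. The median log2 difference of the 81 genes from the mean of the other arrays was −0.17, with the middle of the range between −0.56 and 0.38, against −0.36 for brighter genes. It was 0.03 when arrays were scaled to the 75th percentile. With scaling to the hybridization controls it was −0.64, and 0 members were then higher and 18 (22.2%) lower, beside 4.84% and 17.1% of all genes. Without the LT-HSC array, 3 members were higher and 15 lower, beside 10.4% and 14.6% of all genes.

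Complex V had the lowest median, −0.35, also under each of the 3 other scalings, and 5 of 17 genes were at least 2-fold lower in granulocytes: Atp5b, Atp5g1, Atp5g2, Atp5j and Atp5o. Over all alternative settings the complex V median ranged from −0.83 to −0.03 and that of complex III from −0.78 to −0.07. Complex V was thus not the lowest under every setting. Atp5b, the catalytic beta subunit, had signals of 3122.1 in granulocytes, 12221.7 in HPC, 8552.4 on the LT-HSC and 8823.4 on the ST-HSC array. It was 2.74-fold lower than on the nearest array. Atp5a1, the alpha subunit beside it in the head, had 6419 in granulocytes, 18143.3 in HPC, 12442.3 on the LT-HSC and 15984.9 on the ST-HSC array, which was just short of 2-fold (1.94-fold lower), and passed it without the LT-HSC array. The other head subunits differed less, with mean log2 differences of −0.35 for Atp5c1, −0.64 for Atp5d and 0.15 for Atp5e. The median of the 5 head genes was −0.64, of the 4 peripheral stalk genes −0.80 and of the 8 genes of the membrane part −0.16.

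The peripheral stalk, which holds the head still against the turning ring, was uneven. Atp5j (coupling factor 6) had 707.2 in granulocytes, 2516.6 in HPC, 3587.6 on the LT-HSC and 4391 on the ST-HSC array and was 3.56-fold lower. Atp5o, which caps the head, had 1655.6 in granulocytes, 5531 in HPC, 3495.2 on the LT-HSC and 4332.4 on the ST-HSC array. Against these, Atp5pb of the same stalk had 12267.1 in granulocytes, 10375.9 in HPC, 9575.9 on the LT-HSC and 10149.9 on the ST-HSC array, the highest in granulocytes by a small margin.

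Subunit c of the ring is encoded by Atp5g1, Atp5g2 and Atp5g3, whose mature proteins are known to be the same. Atp5g2 had 818.7 in granulocytes, 5075.2 in HPC, 4023.9 on the LT-HSC and 5557.4 on the ST-HSC array, a 4.91-fold lower value (both its other probe sets were under the floor in granulocytes, and the median over probe sets gave a log2 difference of −0.46). Atp5g1 had 328.3 in granulocytes, 1249.2 in HPC, 681.2 on the LT-HSC and 1245 on the ST-HSC array and was 2.07-fold lower, a call lost under 6 of 11 alternative settings. Both lay outside the range of the other arrays, while Atp5g3, given above, lay within it (mean log2 difference −0.06).

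Complex I was the most mixed. Its median of −0.16 (0.07 with scaling to the 75th percentile) covers 3 of 35 genes that were 2-fold or more higher and 4 that were 2-fold or more lower. Ndufa3, an accessory subunit, had 1938.7 in granulocytes, 780.5 in HPC, 579 on the LT-HSC and 372.9 on the ST-HSC array, a 2.48-fold higher value. Ndufv3, an accessory subunit at the NADH-oxidising tip, had 6589.2 in granulocytes, 2918.6 in HPC, 2693.1 on the LT-HSC and 2579.6 on the ST-HSC array (2.26-fold higher). Ndufs5, an accessory subunit on the side of the intermembrane space, had 433 in granulocytes, 175.1 in HPC, 125 on the LT-HSC and 78.4 on the ST-HSC array, where it was under the floor, and was 2.47-fold higher than in HPC. With the floor at the 75th percentile its log2 difference was 0.01, and the call was lost. These 3 granulocyte signals were each above all others of the gene. Ndufb7, Ndufa13 and, in complex III, Uqcr10 were next, at 1.85-fold, 1.69-fold and 1.80-fold higher, but another probe set of Uqcr10 went the other way, with 21.4 in granulocytes, 514.4 in HPC, 211.4 on the LT-HSC and 343.1 on the ST-HSC array.

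On the lower side, Ndufa5, an accessory subunit of the arm that reaches into the matrix, had 126.2 in granulocytes, 779.7 in HPC, 1080.7 on the LT-HSC and 1215.9 on the ST-HSC array. Its granulocyte signal was just above the floor, and its 6.18-fold lower value was the largest among the members. Its other, dimmer probe set had 18 in granulocytes, 182.3 in HPC, 110.1 on the LT-HSC and 190.6 on the ST-HSC array and, with 2 of these under the floor, gave a mean log2 difference of −0.42 in place of −3.00. Ndufv1, the core subunit that binds NADH, had 2244.8 in granulocytes, 7419.7 in HPC, 7624.3 on the LT-HSC and 7922.1 on the ST-HSC array (3.31-fold lower). Ndufb5, an accessory subunit of the membrane arm, had 2314.2 in granulocytes, 10109.5 in HPC, 6587.9 on the LT-HSC and 8358.6 on the ST-HSC array (2.85-fold lower). Ndufa4, named for complex I but since assigned to complex IV, had 419.8 in granulocytes, 1836.8 in HPC, 1238.8 on the LT-HSC and 2183.6 on the ST-HSC array (2.95-fold lower). In each of these 4 genes the 3 other arrays lay within 2-fold of each other and the granulocyte array lay well under them. The 6 core subunits measured had a median of −0.43. Beside Ndufv1 they were Ndufs8 (−1.04), Ndufv2 (−0.56, with another probe set of opposite sign), Ndufs3 (−0.30), Ndufs1 (0.30) and Ndufs7 (0.34).

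**Figure D2:**
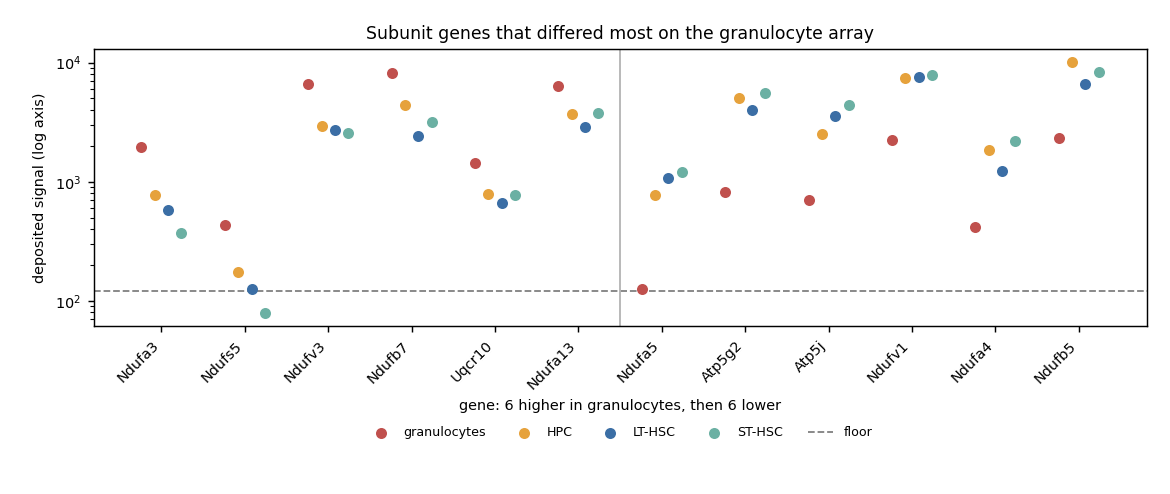
Deposited signal (log axis) on the 4 arrays for the 6 subunit genes that were most clearly higher and the 6 most clearly lower in granulocytes; the dashed line is the floor of 120.1. The granulocyte point stands above the other 3 in the left group and below them in the right group, farthest in Ndufa5 and Atp5g2.

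Upstream sequence was available for 66 of the 81 genes, from RefSeq on the mouse build GRCm38.p6. The 250 bases before each annotated start were searched on both strands for the motif of NRF-1 (GCGCANGCG), a known regulator of respiratory chain genes, for that of ETS factors such as GABP (CCGGAAG) and for that of YY1 (AAGATGGC). The NRF-1 motif was found in 12 of the 66 (18.2%), against 5.86% of all 27025 genes, the ETS motif also in 12 (18.2%), against 7.83%, and the YY1 motif in 1 (1.52%), against 1.83%. A match is a description of the letters and not a binding site. The motif lay on both sides of the granulocyte comparison: 1 of 3 genes at least 2-fold higher, 2 of 10 lower and 9 of the other 53 held the NRF-1 letters. Of the 12 named genes in the plot of granulocyte signals, 3 held them. They are shown because they differed in opposite directions, with the motif in capitals, 5′ to 3′ on the minus strand of each chromosome. Ndufa5 (chr6:24527691-24527940, the window of the farther upstream of 2 annotated starts) and Atp5g2 (chr15:102671048-102671297) were lower in granulocytes and Ndufs5 (chr4:123718187-123718436) was higher. In Atp5g2 it matches on both strands at overlapping positions.
Ndufa5: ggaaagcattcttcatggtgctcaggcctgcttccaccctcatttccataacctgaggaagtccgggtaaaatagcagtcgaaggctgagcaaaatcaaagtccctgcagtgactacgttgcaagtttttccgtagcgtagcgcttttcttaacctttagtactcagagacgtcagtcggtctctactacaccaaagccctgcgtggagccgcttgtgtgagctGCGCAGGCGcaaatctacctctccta
Atp5g2: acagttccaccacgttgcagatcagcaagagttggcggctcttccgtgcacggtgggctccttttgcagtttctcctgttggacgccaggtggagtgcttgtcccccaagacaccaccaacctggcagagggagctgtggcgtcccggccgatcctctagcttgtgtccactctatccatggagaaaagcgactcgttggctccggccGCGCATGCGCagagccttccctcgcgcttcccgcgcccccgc
Ndufs5: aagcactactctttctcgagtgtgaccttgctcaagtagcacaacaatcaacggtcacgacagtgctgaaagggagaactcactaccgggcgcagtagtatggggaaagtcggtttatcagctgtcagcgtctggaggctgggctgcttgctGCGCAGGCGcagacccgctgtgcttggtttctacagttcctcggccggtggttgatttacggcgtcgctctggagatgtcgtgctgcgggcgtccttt

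Complex II, the only complex that also works in the tricarboxylic acid (TCA) cycle, was close to even. Sdha, the flavoprotein that oxidises succinate, had 5705.3 in granulocytes, 7351.6 in HPC, 7040.3 on the LT-HSC and 8697.8 on the ST-HSC array. Sdhb, its iron-sulfur partner, had 6848.8 in granulocytes, 8676 in HPC, 5737.3 on the LT-HSC and 7049.9 on the ST-HSC array. All 4 Sdh genes had mean log2 differences between −0.43 (Sdha) and −0.04 (Sdhb), with Sdhc at −0.27 and Sdhd at −0.17 (0.02 by its other probe set), none clearly larger than the spread between probe sets of 0.42. A second probe set of Sdha disagreed on the size, with 926.3 in granulocytes, 4934.4 in HPC, 3379.8 on the LT-HSC and 6427.7 on the ST-HSC array (mean log2 difference −2.36), the widest gap between probe sets of 1 member in this comparison.

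In complex III the median was −0.30, and 1 of 8 genes was at least 2-fold lower. That gene was Uqcrc2, a core protein of the matrix side, with 3620.4 in granulocytes, 9627.1 in HPC, 9357.4 on the LT-HSC and 8757.2 on the ST-HSC array (2.42-fold). Its partner Uqcrc1 had 3456.8 in granulocytes, 4244.2 in HPC, 4092.2 on the LT-HSC and 3666.2 on the ST-HSC array and so stayed within 1.5-fold. Uqcrfs1, the Rieske iron-sulfur protein, had 3440.2 in granulocytes, 4870.5 in HPC, 3232.8 on the LT-HSC and 6776.7 on the ST-HSC array, so that the granulocyte value lay between those of the stem cell arrays.

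Complex IV was the only complex with a median above 0 in granulocytes, at 0.14. It was −0.18 with scaling to the hybridization controls and 0 without the LT-HSC array. Complexes I and II were above 0 too with scaling to the 75th percentile. The 17 complex IV genes include tissue-restricted isoforms, of which Cox7b2 and Cox8b were under the floor on all arrays and so differed by 0. For the 10 ubiquitous genes the median was 0.29, with 8 above 0 and 2 below. None of the 17 genes of complex IV was at least 2-fold higher by the probe set that stands for it. Cox8a came nearest, at 1.64-fold. Another probe set of Cox8a did pass 2-fold, with 3532.2 in granulocytes, 1313.5 in HPC, 206.3 on the LT-HSC and 1113.9 on the ST-HSC array. So did another of Cox8c, with 825.4 in granulocytes, 229.9 in HPC, 200.8 on the LT-HSC and 108.2 on the ST-HSC array. Cox5b had 14415.5 in granulocytes, 10934.6 in HPC, 8232.8 on the LT-HSC and 10427.9 on the ST-HSC array, and Cox6b1 and Cox6a1 were likewise a little higher in granulocytes (mean log2 differences 0.40 and 0.36). Cox7a2l, known as a factor that joins complexes III and IV into supercomplexes, was the only 1 of the 17 at least 2-fold lower. It had 9722.9 in granulocytes, 22104.6 in HPC, 22259.5 on the LT-HSC and 24154.7 on the ST-HSC array (2.27-fold lower). Ndufa4, also lower and since assigned to complex IV, is counted by its name under complex I throughout. Between complexes, the largest gap in medians was between complex IV at 0.14 and complex V at −0.35, in the same order under each of the 3 other scalings. Over all alternative settings, the complex V median came as near 0 as −0.03 while that of complex III stayed at or below −0.07. The largest gap was thus not always the one between complexes IV and V.

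**Figure D3:**
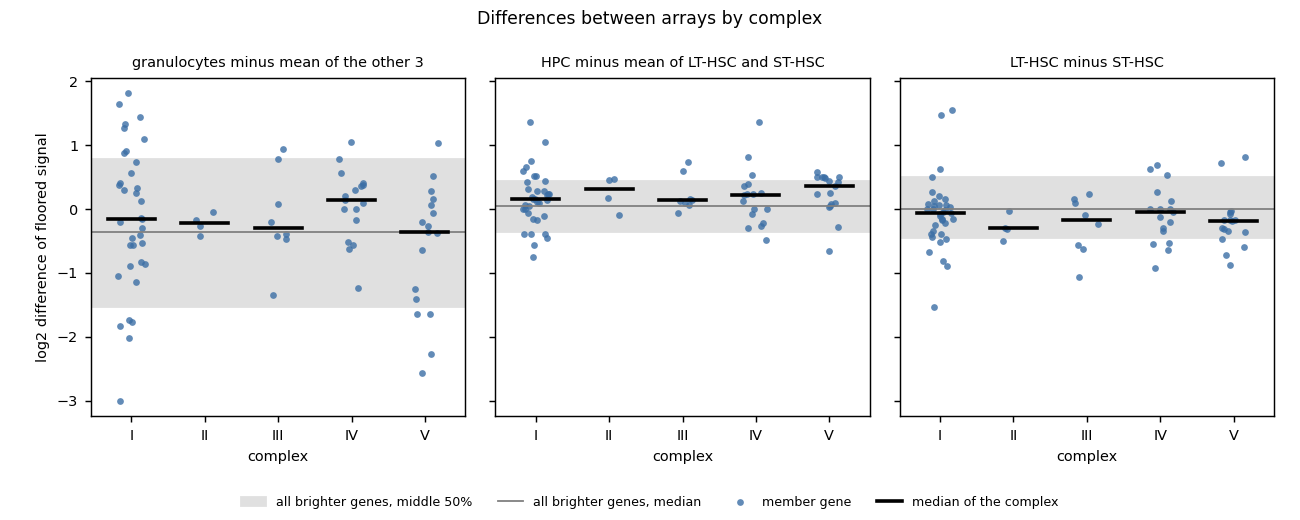
Log2 differences of floored signals (vertical axis) of each member gene (points) by complex, in the granulocyte, HPC and LT-HSC comparisons, with the median of each complex (black bar). The grey line and band give the median and the middle of the range of brighter genes. In granulocytes complex IV has its median at 0.14 and complex V at −0.35 (−0.18 and −0.83 with scaling to the hybridization controls), and in HPC all 5 medians are above 0.

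Tissue-restricted isoforms were mostly near or under the floor. Cox7b2 and Cox8b, known from testis and from heart and muscle, were under it on all arrays. Ndufa4l2, a hypoxia-linked relative of Ndufa4, had 156.1 in granulocytes, 27.3 in HPC, 27.1 on the LT-HSC and 44.1 on the ST-HSC array, so it passed the floor only in granulocytes. Cox4i2, known from lung, had 212.2 in granulocytes, 131.7 in HPC, 112.3 on the LT-HSC and 33.8 on the ST-HSC array. Cox7a1, the muscle isoform, had 20.1 in granulocytes, 142.3 in HPC, 144 on the LT-HSC and 273.2 on the ST-HSC array, and Cox6b2, the testis isoform, had 16.8 in granulocytes, 161.5 in HPC, 216.3 on the LT-HSC and 180 on the ST-HSC array. Both were thus under the floor in granulocytes alone. Cox6a2, the muscle form, had 478.9 in granulocytes, 993 in HPC, 700.2 on the LT-HSC and 454.9 on the ST-HSC array, and Cox8c had 694.2 in granulocytes, 630.7 in HPC, 681.1 on the LT-HSC and 421.2 on the ST-HSC array, above the floor on every array. A low signal did not mark isoforms alone: the ubiquitous Cox7c had 6.8 in granulocytes, 2.6 in HPC, 174 on the LT-HSC and 43.3 on the ST-HSC array.

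Genes that build, regulate or feed the complexes were counted in the same way, in lists set by role, beside the 12.7% of all genes and 25.3% of brighter genes that were at least 2-fold lower in granulocytes. The largest shares were those of the TCA cycle and pyruvate dehydrogenase list and of the list of mitochondrial pores, import, chaperones and carriers. Of 17 genes of the TCA cycle and of pyruvate dehydrogenase, 8 passed 2-fold downward and 0 upward, with a median log2 difference of −0.98. Fh1, the fumarase that follows succinate dehydrogenase in the cycle, had 151.7 in granulocytes, 5029.2 in HPC, 2910.2 on the LT-HSC and 4175.2 on the ST-HSC array, a 19.2-fold lower value. Suclg2, a subunit of the succinate-CoA ligase that precedes succinate dehydrogenase, had 115.1 in granulocytes, under the floor, against 2714.1 in HPC, 1895.9 on the LT-HSC and 6331.1 on the ST-HSC array (at least 15.8-fold lower). Fh1 and Suclg2 were thus near or under the floor in granulocytes, while the Sdh genes between them in the cycle and the partner ligase subunits Suclg1 (1701.6) and Sucla2 (1254.9, with another probe set at a log2 difference of 0.31) were not. Mdh2, malate dehydrogenase, had 28406.9 in granulocytes, 20244.7 in HPC, 15690.8 on the LT-HSC and 18963.4 on the ST-HSC array, and was 1.40-fold higher, followed by Dlst at 1.31-fold, though another probe set of Dlst had the opposite sign (−0.58).

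Other mitochondrial proteins followed a like count. Of 13 genes for pores, import, chaperones and carriers, 6 passed 2-fold downward and 0 upward (median −0.97). Slc25a4, which exchanges the ATP made by complex V for ADP, had 426.8 in granulocytes, 8206.8 in HPC, 8646 on the LT-HSC and 7342.1 on the ST-HSC array (17.2-fold lower), while its relative Slc25a5 had 13679.6 in granulocytes, 19016.8 in HPC, 11822.3 on the LT-HSC and 18527.2 on the ST-HSC array. Hspd1, the matrix chaperonin, had 1274.1 in granulocytes, 19165 in HPC, 8693.7 on the LT-HSC and 14721.5 on the ST-HSC array (6.82-fold lower). The only higher gene of this list against each array was Vdac2 (1.23-fold).

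Among 13 regulators of mitochondrial genes, 4 passed 2-fold downward and 2 upward (median −1.12). Tfam, which packages and transcribes mitochondrial DNA, had 191.7 in granulocytes, 1913.9 in HPC, 1804.7 on the LT-HSC and 2961.7 on the ST-HSC array (9.41-fold lower). Pprc1, a coactivator of NRF-1, had 10.8 in granulocytes, against 962.2 in HPC, 1022.3 on the LT-HSC and 1641.8 on the ST-HSC array (at least 8.01-fold lower). Higher were Esrra, a nuclear receptor, with 700 in granulocytes, 105.6 in HPC, 150.1 on the LT-HSC and 40.5 on the ST-HSC array, and Polg, the mitochondrial DNA polymerase, with 2594.2 in granulocytes, 435.1 in HPC, 529.3 on the LT-HSC and 676.6 on the ST-HSC array, though both other probe sets of Polg had the opposite sign (lowest −0.25).

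Assembly factors were mixed. Of 12 for complex I, 4 passed 2-fold downward and 1 upward (median −0.92): Ndufaf1 had 129.1 in granulocytes, 694.5 in HPC, 616.4 on the LT-HSC and 652.3 on the ST-HSC array (4.77-fold lower), Ecsit was at least 2.33-fold lower, and Ndufaf7 had 1489.3 in granulocytes, 333.4 in HPC, 44.3 on the LT-HSC and 332.3 on the ST-HSC array (4.47-fold higher). Of 28 for complexes II to V, 7 were lower and 2 higher (median −0.62). Cox17, a copper chaperone of complex IV, had 6938.3 in granulocytes, 1315.3 in HPC, 1752.8 on the LT-HSC and 1059.5 on the ST-HSC array (3.96-fold higher). Atpif1, the inhibitor of complex V, had 1324.4 in granulocytes, 4571.4 in HPC, 4592.6 on the LT-HSC and 4996 on the ST-HSC array (3.45-fold lower). Atpaf2, a chaperone for the head of complex V, was at least 3.30-fold lower, and Sdhaf2, an assembly factor of complex II, was 2.26-fold higher with another probe set of opposite sign. Among 8 electron carriers and subunits with other names, 1 was at least 2-fold lower and 0 higher: Ndufab1, the acyl carrier protein of complex I, with 315.3 in granulocytes, 1244.2 in HPC, 916.4 on the LT-HSC and 1005.9 on the ST-HSC array. Cyc1, the cytochrome of complex III, was 1.83-fold lower, and Gpd2, which feeds electrons from glycerol phosphate, 1.42-fold higher, with another probe set of opposite sign (−0.27).

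The hypoxia list of 12 genes had 1 higher and 1 lower (median −0.13, which was 0.06 with scaling to the 75th percentile). Ldha, which makes lactate from pyruvate, had 11860.4 in granulocytes, 5615.1 in HPC, 3703 on the LT-HSC and 5731.3 on the ST-HSC array (2.07-fold higher). Pdk1, which switches off pyruvate dehydrogenase, had 16 in granulocytes, against 1739.9 in HPC, 2592.4 on the LT-HSC and 4314.1 on the ST-HSC array (at least 14.5-fold lower). The medians of the 5 lists for the TCA cycle, other mitochondrial proteins, regulators and the 2 sets of assembly factors lay below that of the 81 subunits under each of the 3 other scalings, and no test of the difference was made.

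**Figure D4:**
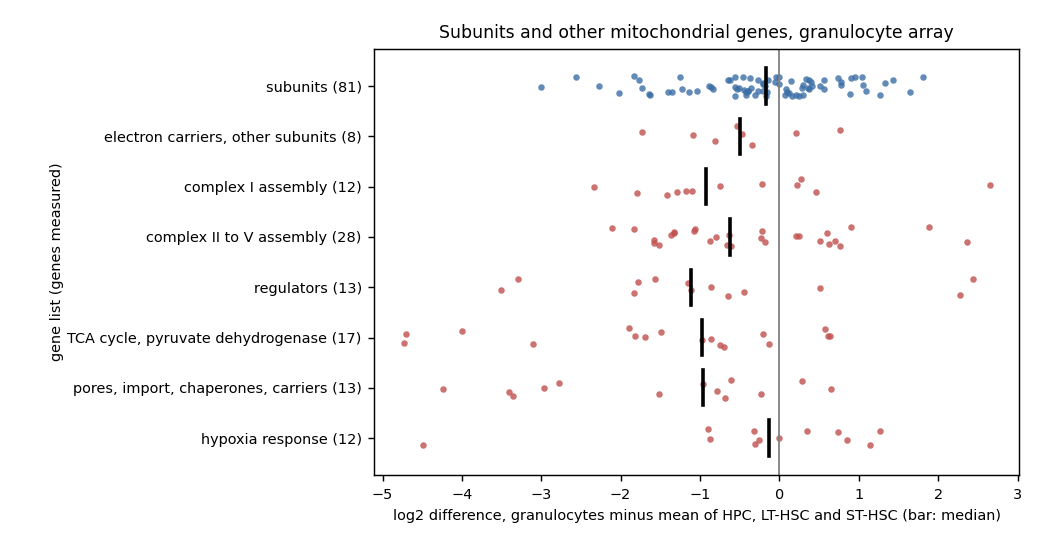
Log2 difference of granulocytes from the mean of the other 3 arrays (horizontal axis) for the subunit genes (blue) and 7 lists of related genes (red), with medians as black bars. The subunits lie around −0.17 (0.03 with scaling to the 75th percentile), whereas the TCA cycle list has its median at −0.98 and points below −4 (Fh1, Suclg2).

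HPC, the Sca-1 negative progenitors, were compared with the LT-HSC and ST-HSC arrays. Subunit genes were on the whole slightly higher in HPC: the median log2 difference was 0.17 and stayed above 0 under each scaling, and 58 of 81 genes had a mean difference above 0 and 19 below. Among brighter genes the median was 0.23 for the 73 subunits and 0.05 for all. At 2-fold, 2 genes (2.47%) were higher and 0 lower, while 2.12% of all genes were higher and 2.69% lower, and 3.18% of brighter genes were higher and 4.67% lower. The members were thus near the background in the upper count, and the shift was made of small differences. Without the LT-HSC array, 6 genes (7.41%) were at least 2-fold higher than in ST-HSC, beside 6.47% of all genes. The 6 myeloid progenitor markers summed to 76823.7 in HPC, 4172.9 on the LT-HSC and 22711.5 on the ST-HSC array, and the part of such cells in the shift was not tested.

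The 2 genes were Cox6c and Ndufa1. Cox6c, a small subunit of complex IV, had 4571.5 in HPC, 1423.3 on the LT-HSC and 2222.1 on the ST-HSC array (2.06-fold higher), with 3163.4 in granulocytes. Its call was lost under 3 of 11 alternative settings, all of them on the choice of probe set. Ndufa1, an X-linked accessory subunit of complex I, had 6847.8 in HPC, 3219.4 on the LT-HSC and 3395.2 on the ST-HSC array (2.02-fold higher), and its 11404.6 in granulocytes was the highest of the 4. Uqcrq and Uqcrh, small subunits of complex III, followed at 1.54-fold and 1.46-fold, Cox6a2 at 1.42-fold and Atp5d, of the rotor in the head of complex V, at 1.40-fold.

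Every complex had a median above 0 in HPC, under each scaling: 0.15 for complex I, 0.31 for II, 0.14 for III, 0.21 for IV and 0.36 for V. Without the LT-HSC array they lay between 0.07 (complex I) and 0.18 (complex II). In complex V, 12 of 17 genes were above both stem cell arrays and 1 below both. Its 5 head genes were all above both, by 0.36 (Atp5a1) to 0.51 (Atp5d) on average. Other probe sets gave less. A dimmer probe set of Atp5c1 was below both, with 328 in HPC, 619.5 on the LT-HSC and 659.8 on the ST-HSC array. A second of Atp5a1 lay between them, with 9168.9 in HPC, 7969.2 on the LT-HSC and 9362.3 on the ST-HSC array (mean 0.09). The third of Atp5a1 gave 0.31 and the other of Atp5d 0.12. Atp5b, with 12221.7 in HPC, 8552.4 on the LT-HSC and 8823.4 on the ST-HSC array, is typical of the 5 head genes by the probe sets that stand for them. The 1 gene below was Atp5j, whose signals are given above, at 1.43-fold lower.

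In complex I the 6 core subunits had a median of 0.00 in HPC, and of −0.05 to 0.15 with the other scalings. Ndufs3 had 1575.8 in HPC, 1979.4 on the LT-HSC and 2142 on the ST-HSC array, and Ndufs7 had 2230.7 in HPC, 3037.3 on the LT-HSC and 2796.3 on the ST-HSC array, 1.26-fold and 1.25-fold lower in HPC. The accessory subunit Ndufa10 was the lowest, with 1066.4 in HPC, 1764.7 on the LT-HSC and 1821.3 on the ST-HSC array (1.65-fold lower), followed by Ndufa5 (1.39-fold) and Ndufa8 (1.29-fold). The dimmer probe set of Ndufa5, under the floor on the LT-HSC array, had the opposite sign, with a mean log2 difference of 0.27. None of these lower values reached 2-fold.

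The array on which a gene was highest shows the HPC shift most plainly. Of the 72 members above the floor everywhere, 33 (45.8%) were highest in HPC, against 24.4% of the 8069 such genes. Granulocytes were highest for 23 (31.9%, against 34.5%), LT-HSC for 1 (1.39%, against 18.9%) and ST-HSC for 15 (20.8%, against 22.2%). The 1 gene highest in LT-HSC was Ndufb6, an accessory subunit of complex I, with 2321.5 in granulocytes, 3233.1 in HPC, 3550.2 on the LT-HSC and 3456.5 on the ST-HSC array. Its other probe set was lowest in LT-HSC, with 1878.2 in granulocytes, 1826.1 in HPC, 1817.1 on the LT-HSC and 2225 on the ST-HSC array. HPC was the lowest array for 4 genes (5.56%, against 16.4%): Ndufa10, Ndufa8, Ndufb3 and Ndufs7, all of complex I. LT-HSC was lowest for 22 (30.6%, against 19.7%), granulocytes for 33 (45.8%, against 41.7%) and ST-HSC for 13 (18.1%, against 22.2%). With the 3 other scalings, HPC was highest for 40.8% to 59.2% of members and for 23.3% to 34.1% of all genes. Without the LT-HSC array HPC was highest for 33 of 72 members and 2706 of 8459 genes. LT-HSC was highest for 0 to 11 members under these scalings, and with scaling to the hybridization controls it was lowest for only 6 of 71. Members share each array's scale and amplification, so these counts are not independent of each other.

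**Figure D5:**
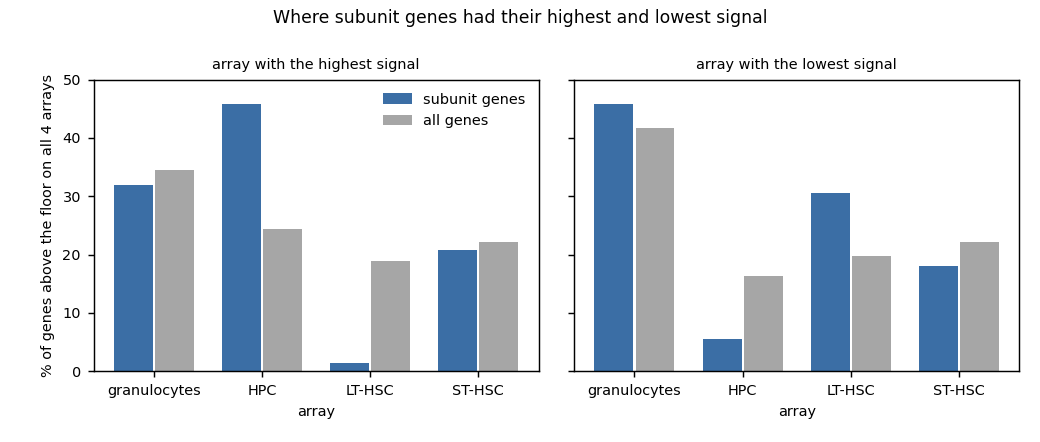
Share of genes above the floor on all arrays (vertical axis, percent) that had their highest (left) or lowest (right) signal on each array, for 72 subunit genes (blue) and all 8069 genes (grey). HPC is the highest array for 45.8% of subunit genes and 24.4% of all genes, and LT-HSC for 1.39% and 18.9%, a share that was 15.5% and 27.2% with scaling to the hybridization controls.

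LT-HSC and ST-HSC, which differ in the CD34 gate, were compared last. Most subunit genes were slightly lower in LT-HSC: 53 of 81 had a difference below 0 and 23 above, with a median of −0.15, but the median was 0.03 with scaling to the hybridization controls and −0.27 with scaling to the 75th percentile. Brighter genes as a whole had 4368 below 0 and 4349 above, of 8911. At 2-fold, 2 members (2.47%) were higher and 2 lower, where 7.28% of all genes were higher and 5.41% lower and, of brighter genes, 11.5% were higher and 9.15% lower. Both member shares were below those of genes at large. Granulocyte and B-lineage markers were high on the LT-HSC array, and their part in these differences was not tested.

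The 2 lower genes were Ndufb2, an accessory subunit of complex I, with 460.9 in LT-HSC and 1329.2 in ST-HSC (2.88-fold), and Uqcrfs1, with 3232.8 in LT-HSC and 6776.7 in ST-HSC (2.10-fold). Ndufb2 was lower still in granulocytes, at 259.1. Next were Ndufa9 (1.85-fold lower), Atp5g1 (1.83-fold), Ndufa4 (1.76-fold) and Atp5h, of the peripheral stalk (1.65-fold). Higher in LT-HSC was Ndufb1, an accessory subunit of complex I, with 567.6 in LT-HSC and 193.4 in ST-HSC (2.93-fold). The other was Ndufs4, an accessory subunit needed for stable complex I, with 409.6 in LT-HSC and 147.5 in ST-HSC, but another of its probe sets had 158.7 in LT-HSC and 195.9 in ST-HSC, the opposite sign. Atp5mpl, a small subunit of complex V, was 1.75-fold and Cox8c 1.62-fold higher.

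By complex, the LT-HSC medians were −0.06 for I, −0.30 for II, −0.17 for III, −0.04 for IV and −0.18 for V. Those of I, III, IV and V were at or just above 0 with scaling to the hybridization controls. The complex IV median includes tissue-restricted isoforms under the floor on both arrays, which differ by 0. For its 10 ubiquitous genes the median was −0.25, with 8 below 0 and 2 above. All 4 Sdh genes were lower in LT-HSC, from Sdhd (1233.1 in LT-HSC and 1750.4 in ST-HSC) to Sdhc (452.3 in LT-HSC and 463.6 in ST-HSC), whose log2 difference was 0.17 with scaling to the hybridization controls. Another probe set of Sdhd had the opposite sign, with 802.4 in LT-HSC and 602.8 in ST-HSC. In complex V, 15 of 17 were lower. Among the related lists, 3 of 17 TCA cycle genes were lower in LT-HSC by 2-fold or more and 0 higher, beside 5.41% and 7.28% of all genes and 9.15% and 11.5% of brighter genes (median −0.53, −0.33 with scaling to the hybridization controls). Pdk4, an inhibitor of pyruvate dehydrogenase, had 783.5 in LT-HSC and 17.4 in ST-HSC, under the floor, and was at least 6.52-fold higher. It was also under the floor in granulocytes (23) and in HPC (9.1).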

How the data were processed

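The files hold 1 deposited table of probe set intensity on a linear scale for 4 arrays, granulocytes, HPC, LT-HSC and ST-HSC, 1 per group. No source used here names the summary software, and the authors' values were not rescaled. The table has 45101 probe sets; without its 64 controls, 34945 have 1 symbol in the platform annotation, 932 have several and 9160 have no usable one. The 164 member symbols all matched RefSeq. The floor (120.1) is the median of all values, applied before log2. Subunit genes analysed had at least 1 probe set with a single symbol, and the 13 mitochondrial DNA genes were not analysed here. The representative probe sets of 17 members have suffixes that mark possible cross-hybridisation, so related copies may add to their signal.

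Named genes were, per comparison and direction, the 6 members of largest fold that reached the 75th percentile on the higher side and had no other probe set of opposite sign above the floor on all arrays compared, with isoforms, ring, core and Sdh genes, the member nearest each complex's median, and the 2 extreme genes of each pathway list. Other members and Slc25a5 were named as contrasts after their values were seen. Members and lists were chosen with earlier results of these data known. The alternatives tried were 3 scalings, other floors, a pseudocount, other choices of probe set, other fold thresholds and, chosen after seeing the data, leaving out the LT-HSC array. The procedure was tested on simulated data. Python 3.11.15, numpy 2.4.6, pandas 2.3.3 and matplotlib 3.10.9 were used.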

Additional observations from a re-analysis of the deposited data

How the results depend on the processing

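Of the members called at 2-fold, 5 of 14 in granulocytes, 1 of 2 in HPC and 1 of 4 in LT-HSC were called under each alternative at the 2-fold threshold that measured them. Among the called, the sign turned for Ndufs4 in LT-HSC, at −0.30 (log2) with the first probe set by name. Of the medians and counts recomputed under the alternatives, 128 values kept within the spread between probe sets or within 1.5 times the count, and 35 did not. No paired analysis was possible because each population has 1 array. Of the 3 scalings, that to the hybridization controls moved the granulocyte median most: 0 members were higher and 18 lower, the median was −0.64, and the medians were −0.64 for complex I, −0.70 for II, −0.78 for III and −0.83 for V, while LT-HSC had 1 lower. The brighter genes moved with it, to a median of −0.83 in granulocytes. Of all genes, 4.84% were then higher and 17.1% lower in granulocytes, and 3.85% were lower in LT-HSC. The size of the granulocyte shift therefore depends on the scale, while complex IV stayed above complex V under each of the 3 scalings. With other alternatives the complex V median came as near 0 as −0.03, and complex V was then not the lowest complex. With scaling to the 75th percentile 5 members were higher in granulocytes and 4 lower in LT-HSC, beside 11.8% and 6.51% of all genes. A floor at the 25th percentile gave 5 higher in granulocytes and 4 higher in LT-HSC, beside 12.9% and 12.8% of all genes. A floor at the 75th percentile gave 0 higher in LT-HSC, beside 3.31% of all genes. Without a floor, with 32 added before log2, 1 was lower in HPC and 4 higher in LT-HSC, beside 4.53% and 11.01% of all genes. With the median over probe sets, and likewise with the first probe set by name, 5 were higher in granulocytes, 1 higher in HPC and 1 higher in LT-HSC. Of all genes, 7.51%, 1.45% and 5.51% were so with the median, and 8.33%, 1.90% and 6.24% with the first probe set. Without probe sets whose suffix marks shared sequence, 7 of 65 members (10.77%) were lower in granulocytes and 0 higher in HPC. At this setting fewer probe sets were tested, and 10.98% of 16591 genes were lower in granulocytes and 2.15% higher in HPC. At 1.5-fold, 11 (13.6%) were higher and 17 (21.0%) lower in granulocytes, beside 15.9% and 17.4% of all genes. At this threshold 4 (4.94%) were higher and 1 (1.23%) lower in HPC, beside 6.69% and 5.85%. In LT-HSC 7 (8.64%) were higher and 11 (13.6%) lower, beside 14.6% and 12.7%. At 4-fold, 0 were higher and 2 lower in granulocytes, 0 higher in HPC, and 0 higher and 0 lower in LT-HSC. Of all genes, 2.86% were higher and 5.34% lower in granulocytes, 0.27% higher in HPC, and 1.29% higher and 0.69% lower in LT-HSC. Without the LT-HSC array, 6 were higher in HPC (7.41%, beside 6.47% of all genes). Except where a setting by its construction tests fewer probe sets or another threshold, the cause was not tested. Among single genes in granulocytes, without probe sets of such suffixes Uqcr10 was at −1.48 (log2; highest 1.18, with scaling to the 75th percentile) and Ndufa5 at −0.42, and with the median over probe sets Atp5g2 was at −0.46, which ended the calls of Ndufa5 and Atp5g2. Ndufs5 was at 0.01 with the floor at the 75th percentile.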

Other observations

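Cytochrome c and the electron transfer flavoprotein subunits Etfa and Etfb, which carry electrons to and between the complexes, had lower signals in LT-HSC than on both other c-Kit enriched arrays. Cycs had 6492.6 in granulocytes, 17177.8 in HPC, 6242.7 on the LT-HSC and 13693.5 on the ST-HSC array. Etfb had 708.9 in granulocytes, 1183.3 in HPC, 557.9 on the LT-HSC and 1438.5 on the ST-HSC array. Etfa was 1.87-fold lower in LT-HSC than in ST-HSC. Of the 8 genes of this list, 3 (Cycs, Etfb and Dhodh) were at least 2-fold lower in LT-HSC than in ST-HSC and 0 higher, beside 5.41% and 7.28% of all genes, and Etfdh and Gpd2 differed the other way, by 0.45 and 0.77 on the log2 scale. The median of the list was −0.52, and −0.32 with scaling to the hybridization controls. These genes were singled out after their values had been seen.

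Coa6, an assembly factor of complex IV, had 1305.4 in HPC, 400.7 on the LT-HSC and 320.3 on the ST-HSC array (3.26-fold higher in HPC), and 484.4 in granulocytes. Nubpl, which delivers iron-sulfur clusters to complex I, had 293 in granulocytes, 27.4 in HPC, 124.5 on the LT-HSC and 950 on the ST-HSC array.

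Probe sets of 1 gene disagreed in sign for 9 of 40 members in granulocytes, 15 of 40 in HPC and 18 of 41 in LT-HSC. Over all genes they did so for 988 of 2874, 1614 of 3511 and 1786 of 3875. Cox8a had the widest gap for HPC and for LT-HSC: 1 probe set had 2172.6 in granulocytes, 943.5 in HPC, 917 on the LT-HSC and 1323.2 on the ST-HSC array, and another had 3532.2 in granulocytes, 1313.5 in HPC, 206.3 on the LT-HSC and 1113.9 on the ST-HSC array.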
